A study of Tachysurus fulvidraco x Tachysurus vachelli with 6 samples.

Results

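Transcript levels of 4 genes of the NF-κB pathway, nfkbia, rel, relb and birc2, were described in the skin of juvenile hybrid yellow catfish (Tachysurus fulvidraco♀ × P. vachellii♂). The genes were chosen by name, with earlier results of these data known, from the 2451 complete gene rows of the deposited table. All 4 were among the 1620 genes tested. In 3 libraries the skin came from fish that had spent 16 h in simulated transport, in sealed oxygen-filled bags on a shaker after a fast, and in 3 libraries from untreated fish kept in the recirculating system. The question was whether genes of immune signalling in skin, a first barrier of fish, differed after transport. The sources used here call the libraries biological replicates but do not state whether each held 1 fish or a pool, or whether control fish had fasted too, so the p-values below measure the spread between these libraries.

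NF-κB proteins are dimeric transcription factors of inflammation and of cell survival. In resting cells they are held in the cytoplasm by inhibitors of the IκB family until the IκB kinase complex marks the inhibitor for degradation, after which the dimers enter the nucleus and switch on cytokine, chemokine and survival genes. In mammals nfkbia, rel and relb are themselves induced by NF-κB, so that the pathway restocks both its inhibitor and part of its subunits. The protein of birc2, known as cellular IAP 1 in mammals, is a ubiquitin ligase that helps to activate the canonical branch downstream of TNF receptors and, in resting cells, keeps the kinase of the non-canonical branch low.

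In transport skin all 4 genes had lower estimates than in control skin, though none passed the test across all genes. The inhibitor gene nfkbia had a log2 fold change of -1.97, relb of -1.06, rel of -0.94 and birc2 of -0.49 (transport over control), against a median of -0.02 over all genes tested. The 95% interval of nfkbia overlapped those of rel and relb but not that of birc2, and the intervals of rel, relb and birc2 overlapped each other.

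None of the 4 genes passed an adjusted p of 0.05 in edgeR (quasi-likelihood test, Benjamini-Hochberg over all genes), where 10 of the 1620 genes (0.617%) passed, 4 of them lower (0.247%) and 6 higher (0.37%). Before adjustment all 4 were lower after transport at p under 0.05, as were 148 of all genes tested (9.14%). DESeq2 called all 4 lower, beside 5.12% of all genes called lower and 4.38% called higher. With limma none of the 4 passed the adjusted threshold (0.123% of all genes lower, 0.617% higher), and nfkbia and relb were lower at an unadjusted p under 0.05, as were 3.33% of all genes. Without TMM factors, the scaling described below, edgeR gave 0 lower genes (0%) and 11 higher genes (0.679%) at the adjusted threshold, none of them among the 4. Before adjustment nfkbia and relb were lower without these factors, beside 4.07% lower and 13.9% higher of all genes tested.

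The libraries were compared on 2 scales. FPKM, a level per unit of transcript length and of library depth, is the deposited measure, and FPKM divided by the TMM factor, called scaled FPKM below, adds the correction between libraries that the test used. The TMM factors were 1.05 to 1.17 in the transport libraries and 0.712 to 1.04 in the control libraries, and they moved the log2 fold changes by -0.30 in the median. Control replicate 1 had the factor of 0.712, and its 10 most abundant genes held 58.1% of its summed FPKM, against 41.1% to 44.0% in the other libraries. The 4 skeletal muscle genes found in the table summed to 1914 to 3184 FPKM after transport and to 1541 to 9265 FPKM in control skin, with the top value in control replicate 1. Most of each sum was the myosin regulatory light chain 2 gene LOC113636033, at 9075 FPKM in that library. The desmin-like gene LOC113634430 had a log2 fold change of -2.56 ± 0.47 (SE, edgeR adjusted p = 0.0749), without overlap. The troponin I genes LOC113635612 and LOC113635978 had 0.73 ± 0.45 and -0.61 ± 0.94 (SE), with overlap. The 4 keratinocyte genes found summed to 61.6 to 82.5 FPKM after transport and 50.1 to 64.3 FPKM in control skin, and the main ones went opposite ways without overlap. Envoplakin (evpl) had a log2 fold change of 1.54 ± 0.42 (SE, edgeR adjusted p = 0.173), and the B-cadherin-like gene LOC113634238 had -0.79 ± 0.21 (adjusted p = 0.168). Of 25 leukocyte markers listed, 1 was in the table, spi1, the myeloid transcription factor PU.1, with an FPKM of 12.2, 7.77 and 9.99 after transport and 6.39, 5.40 and 9.06 in control skin. The 2 mucous cell genes summed to 97.5 to 181 FPKM after transport and 61.2 to 204 FPKM in control skin, nearly all of it agr2. The other mucous cell gene, the mucin-2-like LOC113635236, had an FPKM of 8.59, 0.347 and 5.66 after transport and 0.0384, 0 and 0.0223 in control skin, with no overlap (edgeR adjusted p = 0.101). The 2 pigment cell genes summed to 1.55 to 3.22 FPKM after transport and 3.61 to 7.98 FPKM in control skin. The part of muscle, epidermal, mucous, pigment or immune cell content in the results below was not tested, and in bulk skin fewer cells of a type and less RNA per cell cannot be told apart.

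The inhibitor gene nfkbia encodes IκBα, which masks the nuclear localization signal of NF-κB dimers. It lies on the plus strand of scaffold NW_020848197.1, from 79937 to 83066. It was the most abundant of the 4 and took rank 30 of the 1620 genes by mean FPKM. Its FPKM was 81.4, 80.1 and 77.6 in transport replicates 1, 2 and 3, and 111, 293 and 397 in control replicates 1, 2 and 3. All transport libraries lay below all control libraries, with control replicate 1 the nearest to them. The coefficient of variation of the FPKM was 2.42% after transport and 54.3% in control skin, where the highest library was 3.59 times the lowest. On the scaled FPKM the values were 69.3, 76.1 and 68.9 after transport, against 155, 303 and 381 in control skin. The transport skin thus held a narrow range of nfkbia and the control skin a wide one on both scales. This contrast was not particular to nfkbia. Over the tested genes the chi-square between 2 libraries, divided by genes, was 48.3 to 195 within transport and 387 to 759 within control skin. The level of nfkbia was 3.91-fold lower after transport in edgeR's fit (log2 fold change -1.97, standard error 0.32, 95% interval -2.73 to -1.20, unadjusted p = 6.2e-04, adjusted p = 0.0644). Its unadjusted p was rank 15 of 1620. The exact permutation test on FPKM gave p = 0.1 (two-sided), the smallest that 3 against 3 allow. The study itself reports nfkbia as significantly lower after transport, from its own test of these libraries and from quantitative PCR. Its sequencing criteria combined a p-value, a fold change and an FPKM level, and it does not state that p was adjusted. In edgeR's test here nfkbia had an unadjusted p under 0.05 but an adjusted p above it, so the call depended on the adjustment. The log2 ratio of the group means of FPKM in this row was -1.74 (transport over control). Whether the PCR primers and this row stand for the same gene was not checked.

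**Figure D1:**
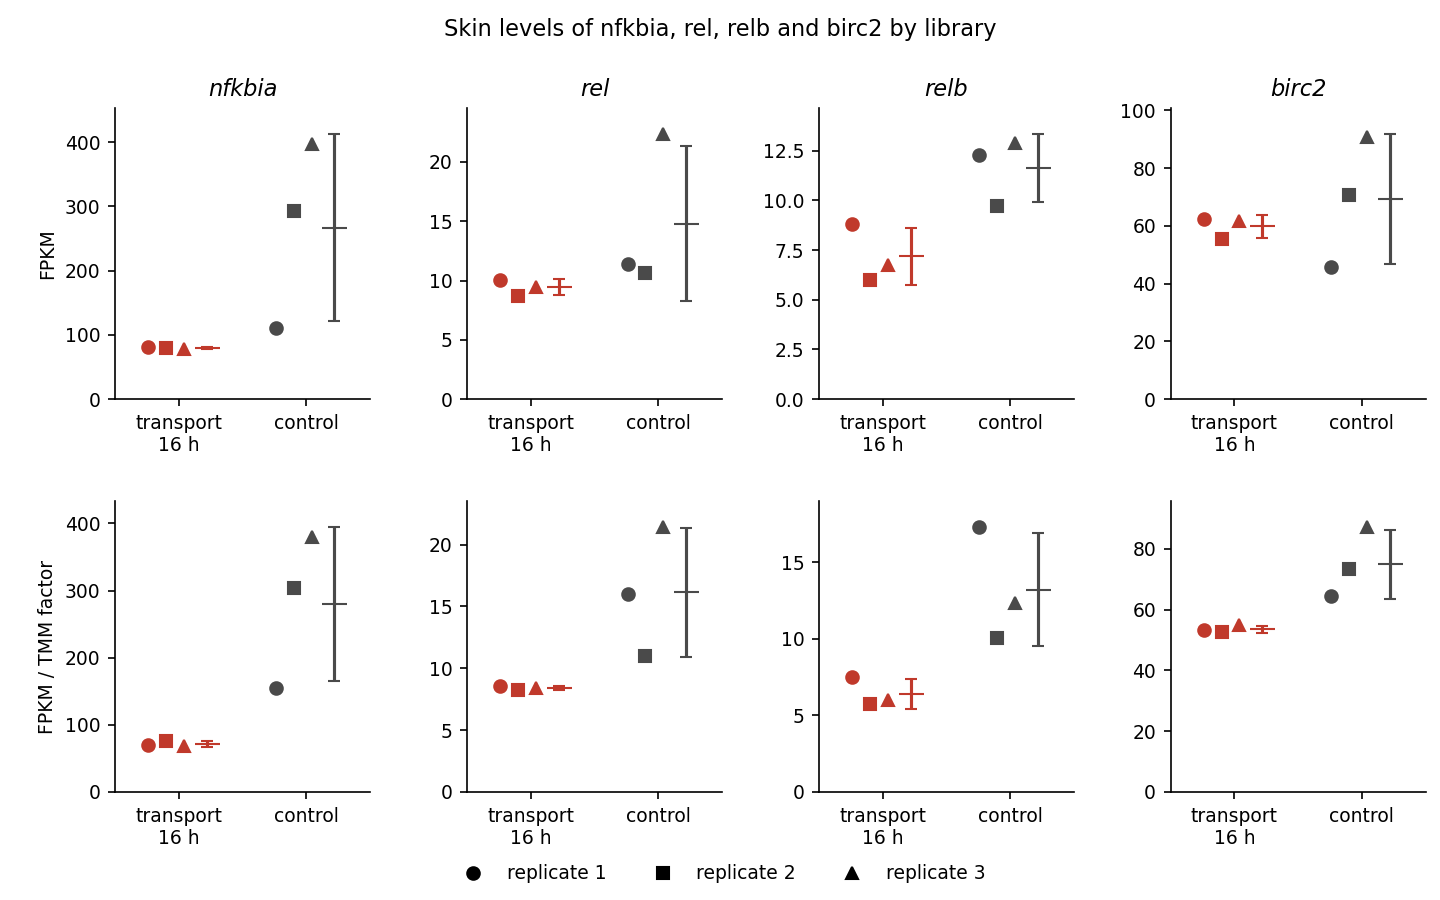
Levels of nfkbia, rel, relb and birc2 in each of the 3 transport libraries (red, left) and 3 control libraries (grey, right), as FPKM in the upper row and as FPKM divided by the TMM factor in the lower row, with the mean and SD of each group beside the points and the replicate number as the marker shape. The transport points of nfkbia lie together at about 80 FPKM while the control points spread between 111 and 397 FPKM, and birc2 overlaps between the groups in FPKM but not after scaling.

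Both NF-κB subunit genes of the 4 were near 10 FPKM. The gene rel encodes c-Rel, a subunit with a transactivation domain that is prominent in mammalian lymphocytes, and lies on scaffold NW_020848202.1 from 1723670 to 1732362. Its FPKM was 10.1, 8.72 and 9.48 in transport replicates 1, 2 and 3 and 11.4, 10.6 and 22.3 in control replicates 1, 2 and 3. The groups did not overlap, though the gap between the highest transport and the lowest control library was small, and control replicate 3 was 2.10 times control replicate 2. The means were 9.42 ± 0.677 after transport and 14.8 ± 6.53 in control skin (SD, n = 3 each). In edgeR's fit rel was 1.92-fold lower after transport (log2 fold change -0.94, standard error 0.24, 95% interval -1.53 to -0.36, adjusted p = 0.159). The log2 fold change of rel was -0.65 without TMM factors and -0.55 with limma on FPKM. Leaving out 1 library at a time gave adjusted p-values of 0.0727 to 0.504, the lowest of them without control replicate 2.

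The gene relb encodes RelB, the subunit that pairs with the processed form of the nfkb2 product in the non-canonical branch. It lies on scaffold NW_020847776.1 from 948752 to 960113. Its FPKM was 8.79, 6.02 and 6.76 in transport replicates 1, 2 and 3, against 12.3, 9.71 and 12.9 in control replicates 1, 2 and 3. All control libraries were above all transport libraries, and here control replicate 1 was among the high ones and control replicate 2 was the lowest. The means were 7.19 ± 1.44 after transport and 11.6 ± 1.69 in control skin (SD, n = 3 each), so that relb did not share the narrow transport group of the other 3 genes. On the scaled FPKM its coefficient of variation was 14.9% after transport and 28.0% in control skin. The edgeR estimate was 2.08-fold lower after transport (log2 fold change -1.06, standard error 0.25, 95% interval -1.65 to -0.46, adjusted p = 0.131). Without TMM factors relb had a log2 fold change of -0.70, and with limma on FPKM it had -0.66.

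The ubiquitin ligase gene birc2 lies on scaffold NW_020848170.1 from 726277 to 733899 and was second in level, with rank 76 of 1620 by mean FPKM. Its FPKM was 62.4, 55.4 and 61.6 in transport replicates 1, 2 and 3, and 45.8, 70.9 and 90.8 in control replicates 1, 2 and 3. On this scale the transport libraries lay inside the range of the control libraries, with control replicate 1 the lowest of the 6 (exact permutation test, two-sided, p = 0.7). On the scaled FPKM the values were 53.1, 52.6 and 54.8 after transport and 64.3, 73.2 and 87.0 in control skin, and the groups did not overlap. The edgeR estimate was 1.40-fold lower after transport (log2 fold change -0.49, standard error 0.15, 95% interval -0.85 to -0.12, adjusted p = 0.210). Without TMM factors the log2 fold change was -0.21 with a standard error of 0.27 (adjusted p = 0.693), so for birc2 the size of the difference rested on the scaling between libraries.

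In FPKM, 3 of the 4 genes had every transport library below every control library, as did 3.7% of all genes tested. In scaled FPKM it was 4 of 4, beside 10.9% of all genes. The counts of the 4 genes ran from 1147 to 33250 per library and their counting errors from 0.548% to 2.95%. These errors were small beside the spread of the control libraries, but not beside every transport spread. For rel the transport coefficient of variation of scaled FPKM was 1.73%, below its transport counting errors of 2.64% to 2.88%.

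Over the 17 other settings tried, the log2 fold change of each gene stayed below 0. For nfkbia 4 of the 17 gave an adjusted p under 0.05, namely DESeq2 with median-ratio scaling (3.8e-07), DESeq2 with the mapped reads as size factors (0.00209), and edgeR without control replicate 1 (0.0224) or without control replicate 3 (0.0383). Over all genes these settings called 83, 24, 1 and 35 genes lower, in the same order. The other 13 gave nfkbia no call, with an adjusted p up to 0.360. For rel, relb and birc2 it was 1 of 17 each, DESeq2 with median-ratio scaling, with an adjusted p of 0.0171, 0.00731 and 0.0194.

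**Figure D2:**
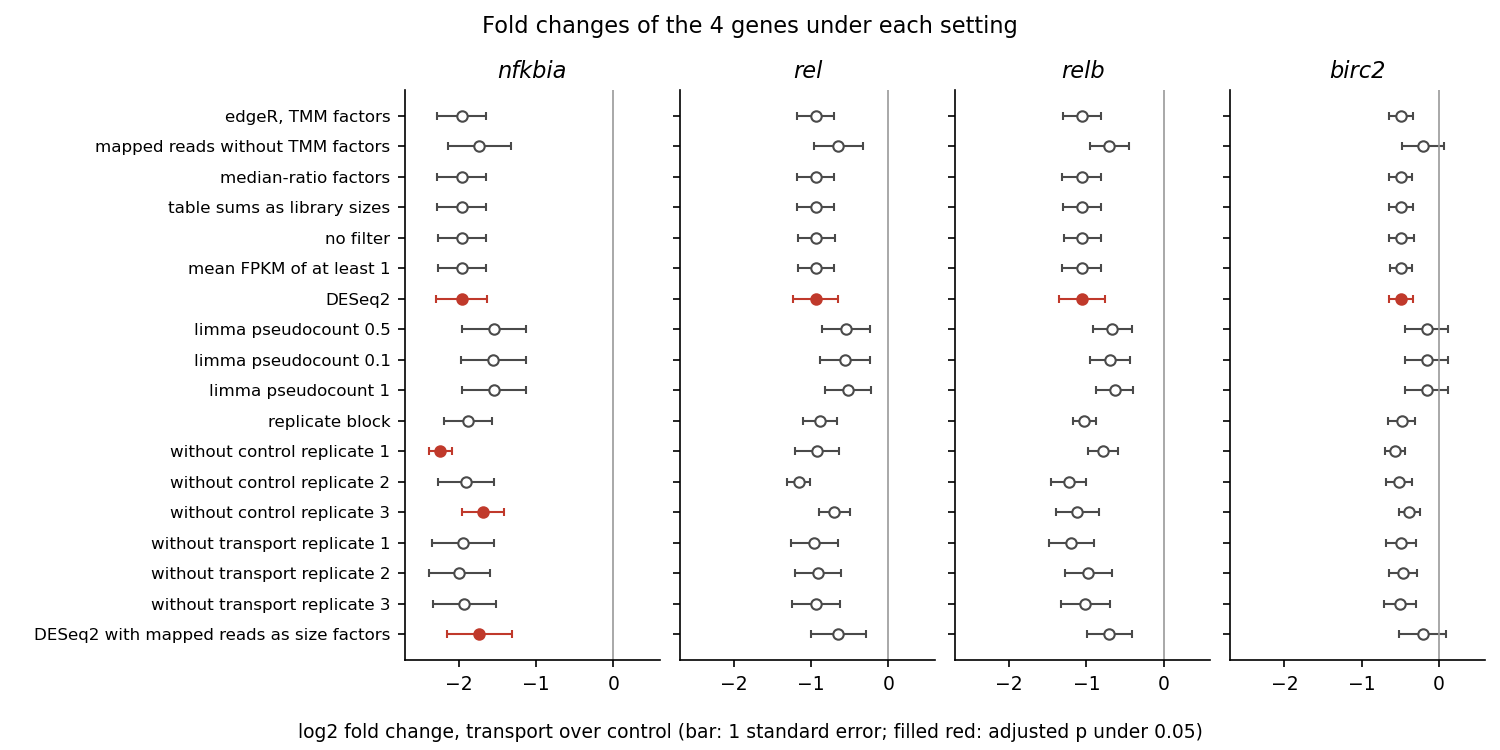
Log2 fold change (x axis, transport over control, bars of 1 standard error) of nfkbia, rel, relb and birc2 in edgeR with TMM factors (top) and under 17 other settings (y axis), with settings that gave an adjusted p under 0.05 in filled red. All points lie below 0, those of nfkbia farthest from it, and those of birc2 come nearest to 0 with limma on FPKM and with mapped reads alone as library sizes.

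A ratio of 2 genes inside a library does not change with the scaling between libraries, so 6 ratios among the 4 genes were compared. The test took log2(FPKM + 0.5), where the added 0.5 leaves some dependence on the scaling, more at low FPKM. Relative to birc2 and to rel, nfkbia was lower in every transport library than in any control library. The FPKM of nfkbia was 1.30, 1.45 and 1.26 times that of birc2 in transport replicates 1, 2 and 3, and 2.41, 4.14 and 4.37 times in control replicates 1, 2 and 3. The mean log2 ratio was 0.41 ± 0.10 after transport and 1.81 ± 0.48 in control skin (SD, n = 3 each), a difference of -1.40 (exact permutation p = 0.1, Benjamini-Hochberg adjusted p = 0.3 over the 6 ratios). Relative to rel, nfkbia stood at 8.08, 9.19 and 8.18 times after transport and at 9.68, 27.6 and 17.8 times in control skin, a difference of -1.01 in log2 ratio (exact permutation p = 0.1, adjusted p = 0.3), which ranged from -1.41 without control replicate 1 to -0.66 without control replicate 2. For both ratios the groups did not overlap, and no p below 0.1 was possible. The 6 ratios reuse the same 4 genes, and how often ratios of other gene pairs do not overlap was not computed.

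The ratio of nfkbia to relb did overlap, because of 1 library. It was 9.25, 13.3 and 11.5 times after transport, and 8.98, 30.2 and 30.8 times in control replicates 1, 2 and 3. Control replicate 1 thus had the lowest ratio of all 6 libraries, and the difference in log2 ratio was -0.89 (exact permutation p = 0.4, adjusted p = 0.48) or -1.47 without that library. It was -0.61 without control replicate 2 and -0.58 without control replicate 3. Between the subunit genes the difference was small and its sign was not stable. The FPKM of rel was 1.15, 1.45 and 1.40 times that of relb after transport and 0.927, 1.09 and 1.73 times in control skin, a difference of 0.12 in log2 ratio (exact permutation p = 0.7, adjusted p = 0.7) that was -0.06 without control replicate 1. Relative to birc2, rel differed by -0.39 and relb by -0.51 in log2 ratio (exact permutation p = 0.4 and p = 0.3), with overlapping groups. Without control replicate 1 the difference of relb to birc2 was -0.20, and without control replicate 2 that of rel to birc2 was -0.62. The log2 ratio of rel to birc2 was -2.64 to -2.57 in the transport libraries and -2.68 to -1.96 in the control libraries.

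**Figure D3:**
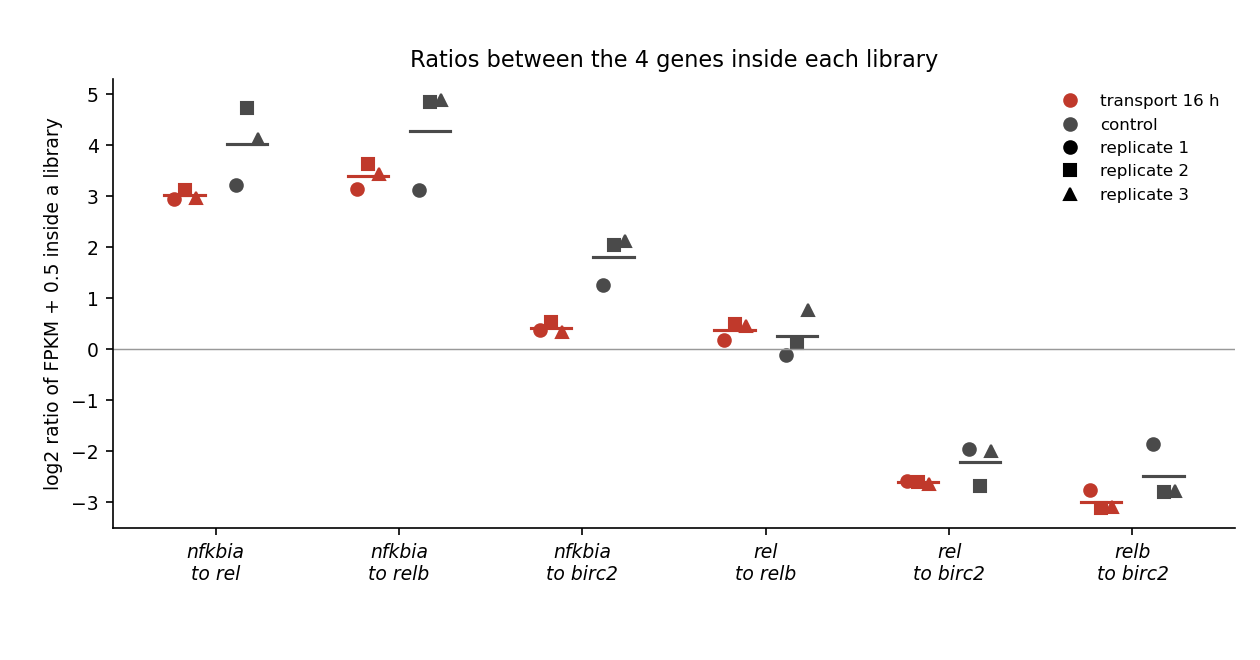
Log2 ratios of FPKM + 0.5 between each pair of the 4 genes inside each library (y axis), for the 3 transport libraries (red, left of each pair) and the 3 control libraries (grey), with the group mean as a line and the replicate number as the marker shape. The ratios of nfkbia to rel and of nfkbia to birc2 do not overlap between the groups, while for nfkbia to relb control replicate 1 is the lowest of the 6 libraries.

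The other genes of the pathway were taken from 7 lists ordered by role, of which 47 genes were in the table and 36 were tested, the 4 genes included. The lists, like the 4 genes, were chosen with earlier results of these data known. In edgeR none of the 36 passed an adjusted p of 0.05. With p unadjusted, 19 (52.8%) were lower and 1 (2.78%) was higher at the 0.05 level, beside 9.14% lower and 7.72% higher of all genes tested. DESeq2 called 15 of the 36 lower and 0 higher, beside 5.12% lower and 4.38% higher of all genes. With limma 1 was called lower and 0 higher, beside 0.123% lower and 0.617% higher of all genes. The median log2 fold change of the 36 was -0.58, or -0.29 without TMM factors, where 13 were lower and 3 higher before adjustment, beside 4.07% lower and 13.9% higher of all genes. Most of the lower genes were on the target list or among the 4 genes. With that list and the 4 genes set aside, 5 of 20 were lower and 1 higher, and the median was 0.04.

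The third subunit gene of the table overlapped between the groups. LOC113635428, described as a putative homolog of p65, the main transactivating subunit of the canonical branch, had an FPKM of 12.6, 8.87 and 11.3 in transport skin and 5.86, 8.36 and 11.3 in control skin. Its log2 fold change was 0.08 ± 0.16 (SE, edgeR adjusted p = 0.843), and 0.37 without TMM factors. By mean FPKM the p65 homolog was the highest of the 3 subunit genes after transport and the lowest in control skin, with a difference to rel and relb that was not tested.

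The 2 genes found of the kinase list, chuk and tab1, overlapped between the groups as well. The other kinase genes listed, among them ikbkb, ikbkg and tbk1, were not found. Neither was ikbke, which the study reports as higher after transport. The gene chuk encodes IKKα, the IκB kinase subunit of the non-canonical branch, and lies on the same scaffold as rel. It had an FPKM of 27.6, 16.4 and 23.8 after transport and 13.3, 13.2 and 21.8 in control skin (log2 fold change 0.17, standard error 0.23, adjusted p = 0.722 in edgeR's test). The gene tab1, whose product activates the kinase TAK1 upstream of the IκB kinases, had an FPKM of 8.04, 7.26 and 9.15 after transport and 5.37, 6.73 and 9.09 in control skin. Its log2 fold change was -0.09 with TMM factors and 0.21 without them.

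Among 9 adaptor, caspase and IAP genes, 2 were lower and 0 higher before adjustment, birc2 and LOC113636462, beside 9.14% lower and 7.72% higher of all genes tested. The product of LOC113636462 is described as receptor-interacting serine/threonine-protein kinase 2-like, the adaptor kinase through which NOD receptors reach NF-κB. It was expressed at a low level, with an FPKM of 1.08, 0.677 and 0.833 after transport and 1.64, 1.71 and 1.79 in control skin (log2 fold change -1.34, standard error 0.31, adjusted p = 0.131). These groups did not overlap. The gene traf6, a ubiquitin ligase of the Toll-like and interleukin-1 receptor routes, had an FPKM of 8.18, 6.55 and 6.49 after transport and 3.22, 4.31 and 6.60 in control skin (log2 fold change 0.30, standard error 0.18, adjusted p = 0.430). The caspase-8-like gene LOC113634470 differed by -0.34 ± 0.20 in log2 (SE, adjusted p = 0.430). It overlaps the next caspase-8-like gene by coordinates, so reads may be shared. The relative of birc2 in the table, xiap, which encodes a direct caspase inhibitor and was picked after its values were seen, had an FPKM of 8.72, 7.33 and 8.56 after transport and 5.20, 6.47 and 8.13 in control skin, and a log2 fold change of 0.01 ± 0.14 (SE, adjusted p = 0.985).

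Of 7 receptor genes tested, edgeR's unadjusted p was under 0.05 for 3 lower genes and 1 higher gene. Of all genes tested 9.14% were lower and 7.72% higher at this level. The lower 3 are neighbours on scaffold NW_020848146.1 and may share reads. The one with the smallest p, LOC113634305, is described as TNF receptor superfamily member 5-like, after CD40, a receptor that drives both NF-κB branches in mammals. Its FPKM was 0.718, 1.88 and 0.975 after transport and 4.01, 4.47 and 7.64 in control skin, with no overlap (log2 fold change -2.44, standard error 0.42, adjusted p = 0.0719). Another gene of this scaffold described as member 5-like, LOC113634306, did not share the difference. LOC113634306 had an FPKM of 8.24, 5.91 and 7.82 after transport and 4.62, 5.18 and 6.53 in control skin, with overlap (log2 fold change 0.11, standard error 0.17, edgeR adjusted p = 0.763). The member 14-like genes LOC113634303 and LOC113634312 had log2 fold changes of -1.36 and -2.45, and their groups overlapped. The higher one, LOC113634355, is described as member 27-like, a receptor of the ectodysplasin family. Its FPKM was 1.38, 0.847 and 0.660 after transport and 0.337, 0.271 and 0.223 in control skin (log2 fold change 1.36, standard error 0.52, adjusted p = 0.258). These groups did not overlap. In FPKM 24.1% of all genes tested had every transport library above every control library.

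The feedback list held 2 tested genes, 1 of them lower before adjustment, beside 9.14% lower and 7.72% higher of all genes tested. LOC113635499, described as CYLD-like after the deubiquitinase that restrains NF-κB, had an FPKM of 7.96, 5.23 and 6.37 after transport and 5.86, 8.02 and 11.5 in control skin (log2 fold change -0.66, standard error 0.18, adjusted p = 0.173). The groups overlapped on this scale. LOC113635973, described as COMM domain-containing protein 5-like, of a family that binds NF-κB subunits in mammals, had an FPKM of 20.8, 18.8 and 20.4 after transport and 12.4, 10.5 and 12.8 in control skin (log2 fold change 0.40, standard error 0.22, adjusted p = 0.404). The groups of LOC113635973 did not overlap in FPKM, and without TMM factors its log2 fold change was 0.74.

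The target list held mainly cytokine and chemokine genes. Chemokine genes joined it by name or description, and whether NF-κB controls each of them in this skin was not tested. The 12 tested had a median log2 fold change of -2.07. Before adjustment in edgeR 10 were lower and 0 higher, beside 9.14% lower and 7.72% higher of all genes tested. The 10 include 5 C-C chemokine genes on 1 scaffold and 3 copies like interleukin-1 beta on another, which can share reads. These counts are therefore not independent. The cytokine copies LOC113635103 and LOC113635105 had log2 fold changes of -2.31 ± 0.52 and -3.19 ± 0.79 (SE). The C-C chemokine genes LOC113635023, 18-like, and LOC113635019, 3-like, had log2 fold changes of -2.30 ± 0.41 and -2.36 ± 0.55 (SE). These were low too, with a mean FPKM of 0.784 and 0.966 after transport and 3.06 and 3.63 in control skin. LOC113633925, C-C chemokine 19-like, lies on another scaffold and was the one target with a positive estimate with TMM factors, 0.07 ± 0.37 (SE), at an FPKM of 75.2, 101 and 81.0 after transport and 62.1, 36.2 and 99.1 in control skin.

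**Figure D4:**
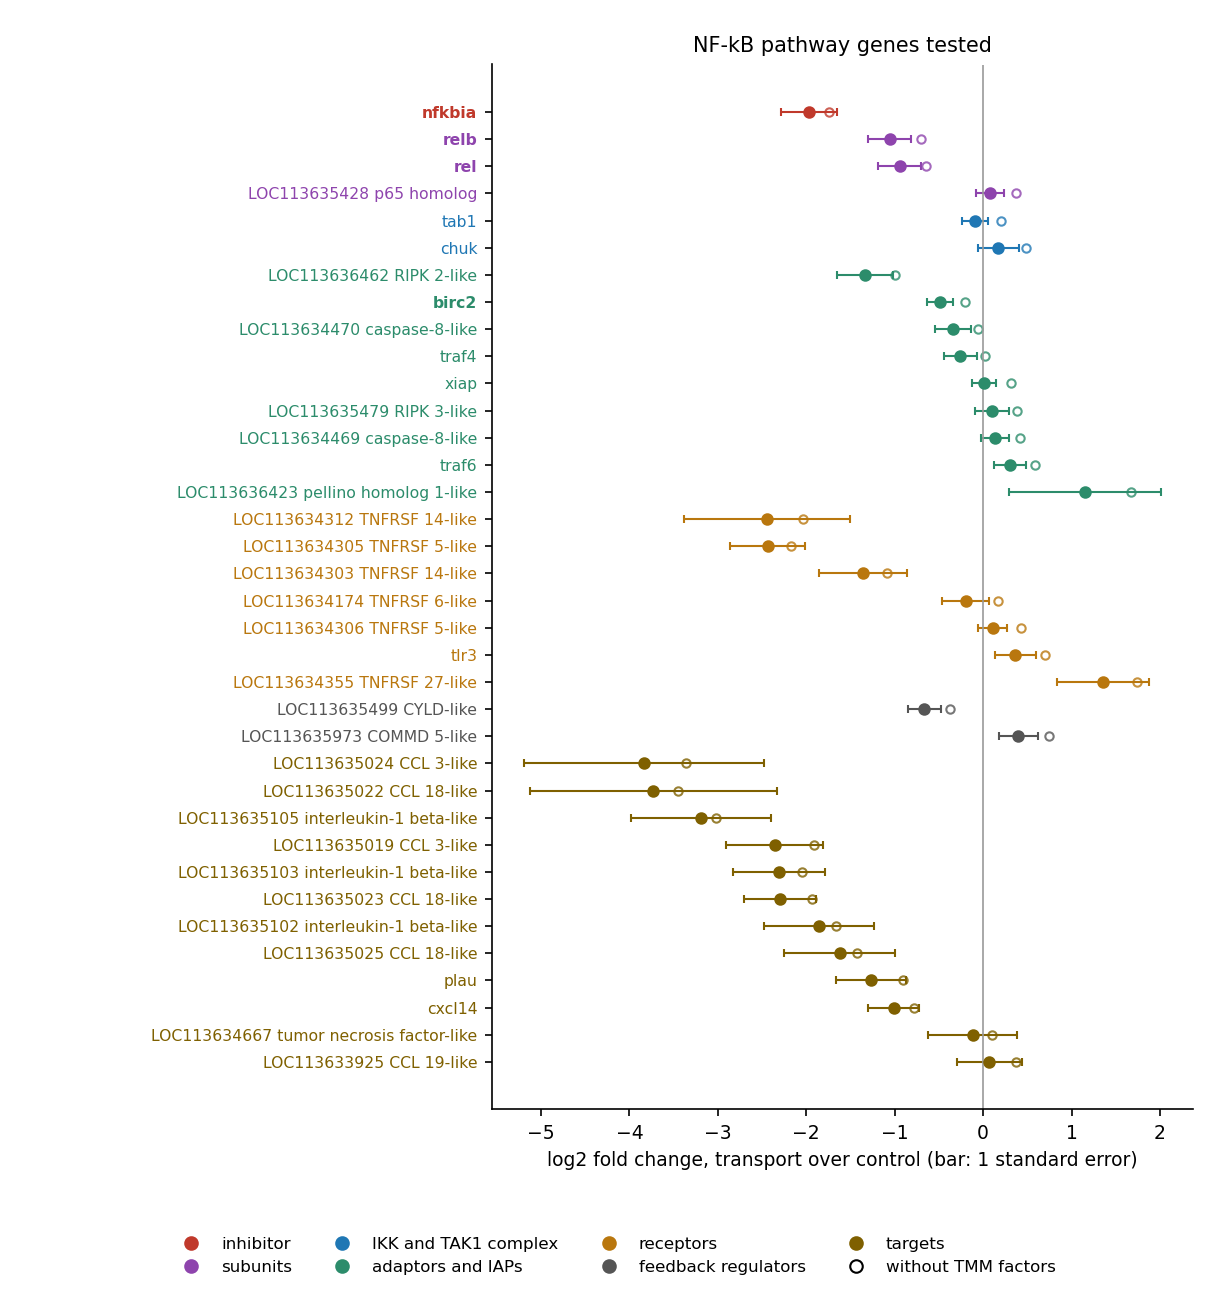
Log2 fold changes (x axis, transport over control, bars of 1 standard error) of the 36 NF-κB pathway genes tested, grouped by role from the inhibitor at the top to the targets at the bottom, with open circles for the estimate without TMM factors and nfkbia, relb, rel and birc2 in bold. The inhibitor, rel and relb and most targets lie left of 0, while the p65 homolog, chuk, tab1 and most adaptors lie near 0.

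The nearest genes of the table on each side of the 4 were looked up too. Next to nfkbia, psma6, a proteasome subunit gene, lies 2339 bases away and had a log2 fold change of -0.07 ± 0.20 (SE). Next to rel, papolg had 0.06 and the PDZ and LIM domain protein 1-like gene LOC113636312 had 0.38 (standard errors 0.25 and 0.26). The gene mrpl28, after relb, had -0.08 (standard error 0.15), and the DNA polymerase theta-like gene LOC113634943, 144 bases after birc2 on the other strand, had -0.17 (standard error 0.45). In edgeR these 5 neighbours had an adjusted p between 0.487 and 0.924. The remaining 3 neighbours, a trichohyalin-like gene, mos and cfap300, were at or near 0 FPKM in all libraries and were not tested.

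The genes with the most alike pattern were sought over the 6 libraries by the root mean square difference of log2(FPKM + 0.5), each gene centred on its own mean. For nfkbia they were a desmin-like gene (LOC113634430, difference 0.42), alas1, the first enzyme of haem synthesis (0.44), and dthd1 (0.47). The desmin-like gene is among the skeletal muscle genes given above. These matches to nfkbia were looser than those to the other genes, listed next. However, the measure is not scaled for how much a gene varies. The root mean square of each gene around its own mean was 0.95 for nfkbia, 0.43 for rel, 0.38 for relb and 0.30 for birc2. For rel they were a programmed cell death 1 ligand 1-like gene (LOC113634394, 0.15), an arachidonate 12-lipoxygenase-like gene (LOC113635137, 0.16) and ogfrl1 (0.17). The nearest to relb was LOC113636462, the receptor-interacting kinase 2-like gene of the adaptor list (0.13), followed by the B-cadherin-like gene LOC113634238 and rab3c (0.16 each). For birc2 they were phf6 (0.07), a P2X purinoceptor-like gene (LOC113634169, 0.09) and a polyubiquitin-C-like gene (LOC113634173, 0.09). Among the 4 genes themselves, rel and relb were the most alike (0.29) and nfkbia and birc2 the least (0.75).

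In the annotation of the table rel and relb share, among other terms, those for the IκB/NF-κB complex, inflammatory response and innate immune response. The complex term holds 3 tested genes, rel, relb and the p65 homolog. Of 24 tested genes annotated to inflammatory response, 14 were lower and 0 higher before adjustment in edgeR, rel and relb among them, beside 9.14% lower and 7.72% higher of all genes tested. For innate immune response it was 4 of 21 lower and 0 higher, with rel and relb among the 4. The C-type lectin receptor pathway holds nfkbia and relb, with 8 of 17 tested genes lower, these 2 among them, and 0 higher. The apoptosis pathway holds nfkbia and birc2, with 3 of 21 lower and 0 higher, a share near that of all genes with nfkbia and birc2 counted in it. The NOD-like receptor pathway holds the same pair, with 8 of 34 lower, nfkbia and birc2 among them, and 1 higher. Of the broad terms, nucleus (rel, relb and birc2) had 27 of 267 tested genes lower and 17 higher. Cytosol (rel and relb) had 6 of 62 lower and 7 higher. These terms share genes with each other and with the target list, so their counts overlap.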

How the data were processed

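The authors sequenced paired reads of poly(A) RNA from skin, filtered by Cutadapt and mapped by HISAT, and built transcripts with StringTie. The sources used here give no versions, build or strandedness. The methods name a human reference, whereas the table's scaffolds and protein descriptions are mostly of Tachysurus fulvidraco, and coordinates are those of the table. The deposited table holds raw read counts per gene and the authors' FPKM. Of its 2452 rows 1 was incomplete and was dropped, and 12 value columns belonging to other samples were left aside.

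The counts summed to 3632651 to 4487002 per library, 12.0% to 12.5% of the mapped reads stated for the libraries, which served as library sizes. The test took genes whose mean FPKM reached 0.5, with edgeR 4.0.16 in R 4.3.3 (TMM factors, quasi-likelihood test, Benjamini-Hochberg over 1620 genes); a standard error is the log2 fold change over the root of F. On counts simulated for these genes edgeR recovered 41% of genes set to a log2 change of 1 and 93% of genes set to 2, with 5 false calls, under dispersions on the fitted trend. Changes were set only in genes above a floor of mean count. No spread around the trend and no library that departs like control replicate 1 was simulated, so these rates can overstate the recovery in the real data. DESeq2 1.42.0 and limma 3.58.1, on log2(FPKM + 0.5), were alternatives, with other scalings, filters and pseudocounts, a replicate block and each library left out; 1 setting, DESeq2 with mapped reads as size factors, was chosen after seeing the data. Exact permutation tests were two-sided. No 2 libraries of a group agreed within sampling noise (chi-square divided by genes, 48.3 to 195 in transport pairs and 387 to 759 in control pairs).

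The 4 genes and the pathway lists were chosen with earlier results of these data known; genes with a LOC number joined a list by their description, which can be wrong. Of each list the text names up to 4 genes of smallest p and 1 of the other direction. For each of nfkbia, rel, relb and birc2 it names the nearest table neighbours and the 3 most alike genes. The exceptions are xiap and LOC113634306. Of the 7 marker lists, dermal fibroblasts and red blood cells had no gene in the table used here. The primer pair that the study lists for nfkbia carries another transcript record than this table's nfkbia row, and whether both are 1 gene was not checked. No promoter or protein sequence was used here.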

Additional observations from a re-analysis of the deposited data

How the results depend on the processing

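All 68 alternative log2 fold changes of nfkbia, rel, relb and birc2 were negative. With DESeq2 they were -1.97, -0.94, -1.06 and -0.49 and passed the threshold, and nfkbia did so at -1.74 with mapped reads as size factors. Without 1 library each they ranged from -2.24 to -1.69 for nfkbia, -1.16 to -0.70 for rel, -1.23 to -0.79 for relb and -0.57 to -0.38 for birc2. The log2 ratio of rel to relb ranged from -0.06 to 0.37 without 1 library each, and the negative value, -0.065, came without control replicate 1; the other 5 ratios kept their sign. The genes called over all genes numbered 10, against 154 with DESeq2 (83 lower, 71 higher), 85 with DESeq2 on mapped reads and 0 to 65 without 1 library each, the 65 without control replicate 3 and the 0 without transport replicate 1 or 3 (158 and 151 at an unadjusted p under 0.05). Pathway genes called numbered 0, against 15 and 6 with the DESeq2 fits, 1 with limma at a pseudocount of 0.5 or 1, and 0 to 2 without 1 library each. The cause of these differences was not tested. Without TMM factors the calls over all genes were 0 lower and 11 higher, against 4 lower and 6 higher with them.

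Deviations of same-numbered libraries correlated at -0.17, 0.08 and 0.10. These values gave no sign of pairing by replicate number, but 3 libraries per group are too few to exclude it. With the replicate number as a block edgeR called 0 genes (215 at an unadjusted p under 0.05), and nfkbia had a log2 fold change of -1.88 with an adjusted p of 0.200. For rel, relb and birc2 that fit gave adjusted p-values of 0.275, 0.179 and 0.369. The standard errors of nfkbia, rel, relb and birc2 were 0.31, 0.22, 0.15 and 0.17 with the block. Without it they were 0.32, 0.24, 0.25 and 0.15. The table covers a part of each library, and 3 libraries per group limit each test.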
